A study of Mus musculus with 6 samples.

Results

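Collagen chains are the subunits of the collagens, the triple-helical proteins that form most of the fibrous and sheet-like matrix between cells. The chains were taken as every gene whose symbol is Col, a number, a and a number, such as Col1a1, among probe sets with exactly 1 gene symbol in the platform annotation. This gave 42 genes on 82 probe sets, of 18193 genes on the array. Liver RNA came from C57BL/6 mice given an intravenous AAV8 vector that expresses Nfkbiz, the gene of the nuclear IκB protein IκBζ, or luciferase as the control. All animals were fed CDAHFD, a high-fat diet low in choline with defined amino acids that models nonalcoholic fatty liver disease, for 4 weeks, beginning 4 weeks after the vector. There were 3 arrays per vector, 1 per liver sample. Both groups thus carried AAV8 and ate the diet, and livers without vector or on normal chow are not analysed here. The sources used here do not give the promoter of the vectors or the sex and age of the mice. The labels also do not say that samples of a group came from separate mice, so a liver below means a liver sample.

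As background, 3 collagen chains wind around each other into a triple helix in the endoplasmic reticulum, and are secreted, trimmed and crosslinked outside the cell. Types I, III and V build fibrils, type IV forms the meshwork of basement membranes, and type VI forms beaded filaments around cells. In the injured liver, activated hepatic stellate cells are the main source of fibrillar collagen, and the accumulation of this matrix is fibrosis.

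Values are MAS5 intensities on a linear scale, and a difference is the mean log2 intensity of the Nfkbiz arrays minus that of the luciferase arrays, with limma's moderated standard error (SE). The vector was visible on 1 of 3 probe sets of Nfkbiz, where the controls read 221, 229.5 and 179.7 and the Nfkbiz arrays 4424, 4073 and 2006. The other probe sets of Nfkbiz differed by 0.30 ± 0.19 SE and -0.89 ± 0.54 SE and did not pass, and whether they lie in the sequence the vector carries is not given in the sources used here. Of the 42 chain genes, 27 were bright enough to be tested, with a mean log2 intensity above the lowest 40% of probe sets, an intensity of 47.4. Across arrays of 1 group, genes correlated at r = 0.962 to 0.971, and across groups at 0.959 to 0.968. In whole liver, fewer cells of a type and less RNA per cell cannot be told apart.

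Most collagen chains read somewhat lower in the Nfkbiz livers, and none passed the test. Of the 27 tested genes, 21 had a negative and 6 a positive difference, and the median was -0.27, against -0.02 over all 13312 genes tested, of which 52.2% had a negative difference. Limma with Benjamini-Hochberg adjustment over all genes called 0 of the 27, with adjusted p-values from 0.245 to 0.999, while 0.225% of all genes were called. At an unadjusted p below 0.05 there were 5 chains, all lower (Col27a1, Col15a1, Col6a1, Col1a1 and Col6a2), where 7.00% of all genes reached that level in the lower direction. On the brightest probe set of each gene, the groups did not overlap for 3 chains. These were Col27a1, Col15a1 and Col1a1, all lower in the Nfkbiz arrays, where 10.0% of all genes were separated in that direction. That share is close to the background. Standard errors of the 27 differences ran from 0.14 to 0.72.

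**Figure D1:**
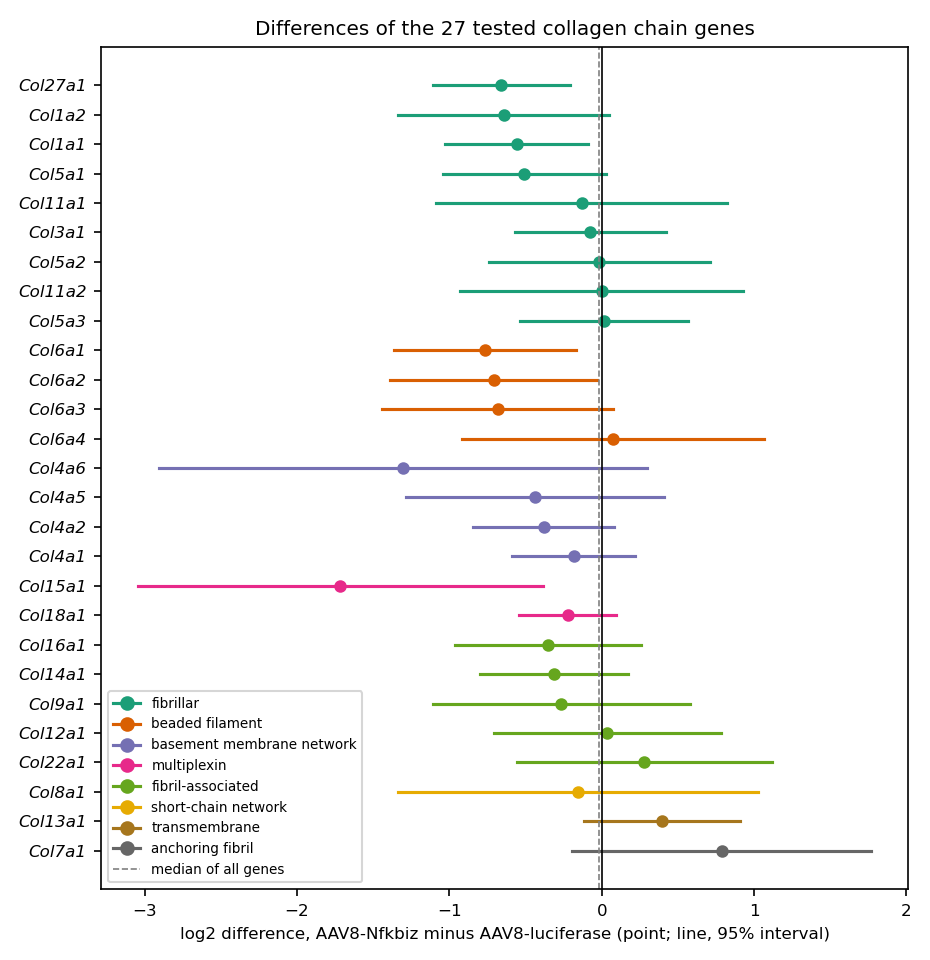
Log2 differences, AAV8-Nfkbiz minus AAV8-luciferase (x axis), of the 27 tested collagen chain genes (y axis), coloured by structural class; points are limma estimates, lines their 95% intervals, and the dashed line the median of all genes. Points of 21 genes lie left of 0, and the interval lies wholly below 0 for Col27a1, Col1a1, Col6a1, Col6a2 and Col15a1, none of which passed after adjustment over all genes.

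Among the fibril-forming chains, 9 of 11 were tested and 8 had a negative difference, with a median of -0.13. Both chains of type I collagen, the main collagen of scar tissue, read lower on average. Col1a1, the gene of the more abundant type I chain, read 508, 369 and 316 in the luciferase livers and 294, 243 and 259 in the Nfkbiz livers. Every luciferase array lay above every Nfkbiz array, and the first luciferase array was the highest. The difference was -0.56 ± 0.21 SE (95% interval -1.03 to -0.09), a 1.47-fold lower level, with a limma adjusted p of 0.333. Without the first luciferase array it was -0.37.

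Col1a2, the partner chain of type I, read 5919.7, 4023 and 2082 in the luciferase livers and 2006, 2287 and 2829.6 in the Nfkbiz livers. Here the groups overlapped, because the third luciferase array read within the range of the Nfkbiz arrays. The difference was -0.64 ± 0.31 SE (-1.33 to 0.05, limma adjusted p = 0.444), and leaving out the first luciferase array brought it to -0.30, leaving out the third to -1.05. The second tested probe set of each gene had nearly the same difference, -0.64 ± 0.37 for Col1a1 and -0.67 ± 0.35 for Col1a2. On that probe set of Col1a1 the groups overlapped, at 434, 270 and 161.3 against 124.6, 161.5 and 248. The separation of the groups in Col1a1 thus rests on its brighter probe set.

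Col3a1, whose chain forms type III fibrils by itself and mixes with type I in liver, differed little from 0. It read 10758, 7521 and 5855 in the luciferase livers and 6722, 6390.0 and 9440.1 in the Nfkbiz livers. The highest array was the first luciferase liver and the next the third Nfkbiz liver, so the ranges overlapped widely. The difference was -0.07 ± 0.22 SE (-0.57 to 0.42, limma adjusted p = 0.922), and its sign turned to 0.16 without the first luciferase array and to 0.03 without the second Nfkbiz array. The interval also holds the difference estimated for Col1a1, so the values do not show that Col3a1 stayed level.

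Type V chains sit inside type I fibrils and limit their thickness. Col5a1 read 638, 529.8 and 342 in control livers and 351, 288 and 398 in Nfkbiz livers, with the third luciferase array below both the first and the third Nfkbiz arrays. Its difference was -0.51 ± 0.24 SE (limma adjusted p = 0.44), and all 3 of its tested probe sets were negative, at -0.59, -0.51 and -0.49. Without the first luciferase array the difference was -0.31 and without the third -0.76. Col5a2 read 949.9, 633 and 315 against 614, 502 and 595, so that the luciferase arrays spanned the whole range of the Nfkbiz arrays. Its difference of -0.02 ± 0.33 turned positive under quantile normalization, median centring and loess normalization and without the first luciferase, the second luciferase or the second Nfkbiz array, and had no settled direction. Col5a3 stood at 0.01 ± 0.25.

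Col27a1, the gene of a fibrillar chain best known from cartilage, had the smallest p of the family. It read 550.4, 721 and 509.7 in the luciferase livers and 436, 297 and 397 in the Nfkbiz livers. The groups did not overlap, and the second luciferase and second Nfkbiz arrays were the extremes. The difference was -0.66 ± 0.20 SE, a 1.58-fold lower level (95% interval -1.11 to -0.21, limma adjusted p = 0.245). The other tested probe set of the gene gave -0.20 ± 0.37, with overlap of the groups. The size of the difference and the separation thus rest on the brighter of its tested probe sets. Of the remaining fibril-forming chains, Col11a1 and Col11a2 read at most 128 on any array and differed by -0.13 and -0.0014, while Col2a1 and Col24a1 were below the intensity limit.

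The promoter sequences of the family were looked at because Col1a1, Col1a2, Col6a1, Col6a2 and Col6a3 read lower while the estimate for Col3a1 lay near 0. As given above, the values do not show that Col3a1 stayed level. RefSeq windows of GRCm38.p6 were on hand for 33 of the 42 genes, Col1a1 not among them, and the 250 bases before the annotated start were searched on both strands. These are shown for Col1a2 (chr6:4505368-4505617, plus strand), Col6a1 (chr10:76726045-76726294, minus strand) and Col27a1 (chr4:63215162-63215411, plus strand), each 5′ to 3′ with CCAAT boxes (CCAAT or ATTGG) and GC boxes (GGGCGG or CCGCCC) in capitals.
Col1a2: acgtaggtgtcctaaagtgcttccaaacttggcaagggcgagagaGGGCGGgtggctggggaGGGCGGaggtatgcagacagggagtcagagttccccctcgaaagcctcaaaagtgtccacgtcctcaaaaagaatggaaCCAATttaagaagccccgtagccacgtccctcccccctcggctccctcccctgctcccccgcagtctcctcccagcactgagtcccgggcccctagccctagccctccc
Col6a1: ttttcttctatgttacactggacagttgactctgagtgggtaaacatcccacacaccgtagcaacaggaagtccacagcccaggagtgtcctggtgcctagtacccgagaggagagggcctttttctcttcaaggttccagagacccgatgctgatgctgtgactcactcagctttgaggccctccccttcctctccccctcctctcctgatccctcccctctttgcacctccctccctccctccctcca
Col27a1: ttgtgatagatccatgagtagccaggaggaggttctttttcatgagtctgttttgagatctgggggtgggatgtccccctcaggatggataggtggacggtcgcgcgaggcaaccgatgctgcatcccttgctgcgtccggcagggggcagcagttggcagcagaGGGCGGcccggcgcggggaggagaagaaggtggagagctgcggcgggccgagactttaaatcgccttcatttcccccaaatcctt
The Col1a2 window held 1 CCAAT box and 2 GC boxes, the Col27a1 window 1 GC box, and the Col6a1 window neither. The Col3a1 window, not printed, also held neither, and had 1 TATAAA and 35.2% G and C. The printed genes were picked with their values known. Windows of Col15a1 and Col5a1, which had smaller p-values than Col1a2, are not printed. Over the family, 21 of the 36 windows of these genes (58.3%) held a GC box, against 32.7% of all 32851 windows, and the windows were also richer in G and C, with a median of 59.0% against 52.4%. A CCAAT box was in 13 of 36 (36.1%, all windows 33.8%), and TATAAA in 5 of 36 (13.9%, all windows 12.4%). The AP-1 pattern TGANTCA was in 1 of 36, that of Col6a1 (2.78%, all windows 6.75%). These matches describe letters only, and binding was not measured.

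Type VI collagen, which links cells to the fibrils around them, had 4 tested chains, of which 3 had differences close to each other and 1 was near 0. Its chains α1, α2 and α3 are assembled together into a single molecule. Col6a1 read 1152, 803 and 509.6 in the luciferase livers and 402, 426 and 558 in the Nfkbiz livers. The third luciferase array lay below the third Nfkbiz array, and the other luciferase arrays lay above all Nfkbiz arrays. The difference was -0.77 ± 0.27 SE, a 1.70-fold lower level (95% interval -1.37 to -0.17, limma adjusted p = 0.304).

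Col6a2 read 1151, 687 and 463 against 436, 341 and 564, in the same order of arrays within the luciferase group. Its difference was -0.71 ± 0.31 SE (limma adjusted p = 0.39), and a second probe set, of a kind whose probes can also match other transcripts, gave -0.65 ± 0.22. Col6a3 read 2918, 1593 and 978 against 859, 907 and 1410.1, and differed by -0.68 ± 0.34 SE (limma adjusted p = 0.46). In all 3 genes the first luciferase array was the highest of the 6, and leaving it out brought the differences to -0.48, -0.37 and -0.27. Leaving out the third luciferase array moved them the other way, to -1.07, -1.02 and -1.06. Col6a4 (0.07 ± 0.44) was near the intensity limit and Col6a5 below it.

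**Figure D2:**
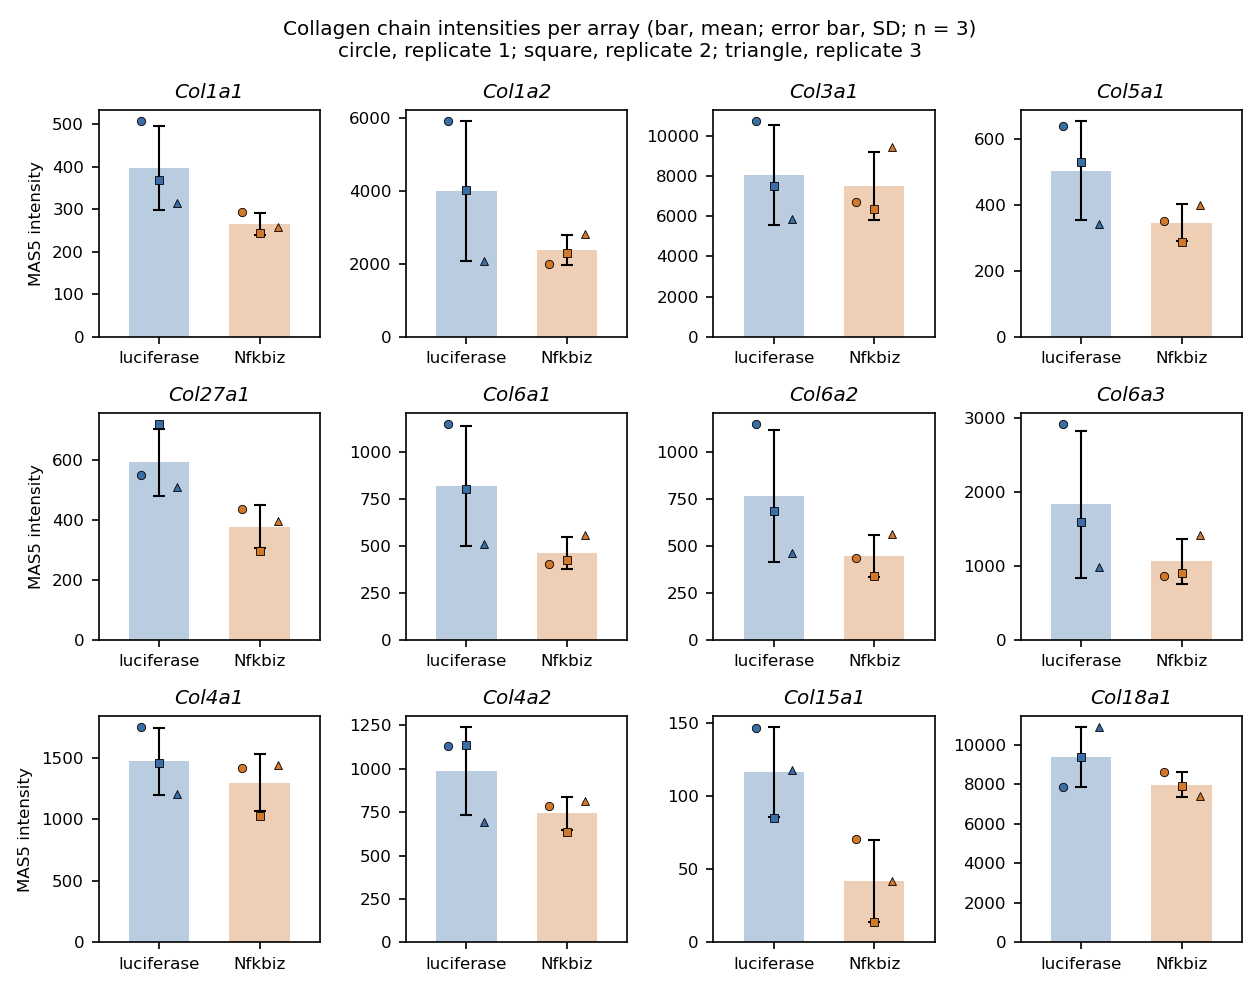
MAS5 intensities (y axes, linear and starting at 0) of 12 collagen chain genes by vector; bars are group means, error bars SD (n = 3), and symbols single arrays. The first luciferase array (blue circle) is the highest of the 6 for Col1a1, Col1a2, Col3a1, Col5a1, Col6a1, Col6a2, Col6a3, Col4a1 and Col15a1, and the groups are fully apart for Col1a1, Col27a1 and Col15a1.

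All 4 tested basement membrane chains of type IV had a negative difference, with a median of -0.41. The α1 and α2 chains form the common network, which lines vessels and bile ducts and is laid down along sinusoids in fibrosis. Col4a1 read 1750.2, 1457 and 1209 in the luciferase livers and 1415, 1029 and 1443 in the Nfkbiz livers, and the groups overlapped. It differed by -0.18 ± 0.18 SE (limma adjusted p = 0.737), and its other probe set by -0.12 ± 0.17. Col4a2 read 1132, 1135 and 695 against 784, 634 and 813, with the third luciferase array inside the Nfkbiz range, and differed by -0.38 ± 0.21 SE (95% interval -0.84 to 0.08, limma adjusted p = 0.5). Without the first luciferase, the third luciferase or the second Nfkbiz array the difference of Col4a1 was -0.05, -0.32 and -0.03, and without the third luciferase array that of Col4a2 was -0.62.

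These genes are neighbours on opposite strands, with annotated RefSeq starts 21 bases apart. The first bases of the genes overlap, because Col4a2 (plus strand) starts at 11312805 and Col4a1 (minus strand) at 11312826. The promoter window searched for each gene thus lies downstream of the annotated start of the other. Col6a1 with Col6a2, and Col3a1 with Col5a2, are neighbouring members too. Side by side, the differences were -0.18 and -0.38 for Col4a1 and Col4a2, -0.77 and -0.71 for Col6a1 and Col6a2, and -0.07 and -0.02 for Col3a1 and Col5a2. The neighbours Col4a6 and Col4a5, which encode minor network chains, were wide in error, at -1.31 ± 0.72 and -0.44 ± 0.38, and Col4a6 read 85, 148 and 94 against 152, 31 and 17. Col4a3 and Col4a4, the kidney-type chains, were below the intensity limit.

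The multiplexins Col15a1 and Col18a1 encode basement membrane zone collagens whose ends can be cut off as soluble fragments, endostatin in the case of type XVIII, which hepatocytes also express. Col15a1 read 147, 85 and 118 in the luciferase livers and 70, 14.2 and 42 in the Nfkbiz livers. The groups did not overlap, but the second and the third Nfkbiz arrays lay under the intensity limit of 47.4. Its difference was the largest of the family at -1.71 ± 0.60 SE (95% interval -3.04 to -0.39, limma adjusted p = 0.302), and -1.07 without the second Nfkbiz array.

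Col18a1 was bright. It read 7849.7, 9405 and 10907 on the luciferase and 8640.0, 7915 and 7404 on the Nfkbiz arrays, with the first luciferase array inside the Nfkbiz range. The difference was -0.22 ± 0.14 SE (-0.54 to 0.10, limma adjusted p = 0.573), with -0.30 ± 0.17 on the second probe set. The first luciferase array was the lowest of its group here and the third the highest, the reverse of Col1a1, Col1a2, Col6a1, Col6a2 and Col6a3. Leaving out the first luciferase array gave -0.35, and leaving out the third gave -0.11.

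Fibril-associated collagens decorate the surface of fibrils. Col14a1, found on type I fibrils, read 3510.4, 2944 and 1894 in the luciferase and 1818, 2213 and 2531 in the Nfkbiz livers, with overlap, and differed by -0.31 ± 0.22 SE (limma adjusted p = 0.598). Without the first luciferase array it was -0.12, without the third -0.57 and without the first Nfkbiz array -0.19. Its second probe set gave -0.61 ± 0.30. Col16a1 stood at -0.35 ± 0.27 and Col9a1 at -0.27 ± 0.38. Col12a1, at 173, 98 and 141 against 106, 119.9 and 203, was the only gene whose tested probe sets differed in sign, at 0.03 ± 0.34 and -0.03 ± 0.39, and its difference turned negative without the second luciferase (-0.19) or the third Nfkbiz array (-0.25). Col22a1 stood at 0.28 ± 0.38.

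Besides Col5a3, Col6a4, Col12a1 and Col22a1, the positive differences were in Col7a1 and Col13a1. Col7a1, the anchoring fibril chain of skin, read 39, 123 and 117 against 142, 122 and 167 (0.79 ± 0.44 SE, limma adjusted p = 0.515). The first luciferase array alone was far below the others, at 39.2. Col13a1, a transmembrane collagen, read 156, 207 and 171 against 187, 269.7 and 249 (0.40 ± 0.23 SE, limma adjusted p = 0.527). Neither passed, and the groups overlapped in both. Col8a1, a short-chain network collagen of vessel walls, stood at -0.16 ± 0.53, with a second probe set at -1.14 ± 0.70. Over the family 41 of 82 probe sets were tested, of which 35 had a negative difference, against 53.0% of all 27022 probe sets. None was called (0.0703% of all probe sets were), and 7 had an unadjusted p below 0.05, all lower, against 6.47% in that direction. In all, 13 genes had more than 1 tested probe set, and in 12 of them all these probe sets were negative.

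The 15 chain genes below the intensity limit were Col2a1, Col4a3, Col4a4, Col6a5, Col8a2, Col9a2, Col9a3, Col10a1, Col17a1, Col19a1, Col20a1, Col23a1, Col24a1, Col25a1 and Col26a1. Many of these are chains of cartilage, skin, nerve or kidney. Their intensities ran from 0.593 for Col24a1 to 136 for Col20a1, each on 1 luciferase array, and 0 of the 15 stayed above the limit on every array. Detection calls were not used here, so whether such genes were expressed was not settled by these values.

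The values of the chains varied among the arrays within each group. The first luciferase array was the highest of the 6 for 15 of the 27 tested genes, and the second Nfkbiz array was the lowest for 9. Shares over all genes were not computed for these counts. The median deviation of all genes tested was also highest on the first luciferase array (0.06) and lowest on the second Nfkbiz array (-0.04). The first array was the highest of the luciferase group for 16 of the 27 chains, where it was the highest for 39.7% of all genes. Within the luciferase group, the third array was the lowest for 18 of the 27 chains, where it was the lowest for 40.1% of all genes. The median deviation of the 27 chains from their means over the 6 arrays was 0.42, 0.26 and -0.24 in control livers and -0.11, -0.25 and -0.0018 in Nfkbiz livers. The third luciferase array therefore stood at the level of the second Nfkbiz array. The larger within-group SD of the family's per-array median was 0.35. The median SD of the chains was 0.46 among the controls and 0.28 among the Nfkbiz arrays, against 0.23 and 0.21 over all genes, so the controls spread more widely. Without the first luciferase array the family's median was -0.15, 17 of 27 were negative and 2 were at an unadjusted p below 0.05. Without the second Nfkbiz array it was -0.27, with 19 of 27 negative and also 2 at that level. Without the third luciferase array it was -0.50, with 22 of 28 negative and 11 at that level, and 0 were called in each case.

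**Figure D3:**
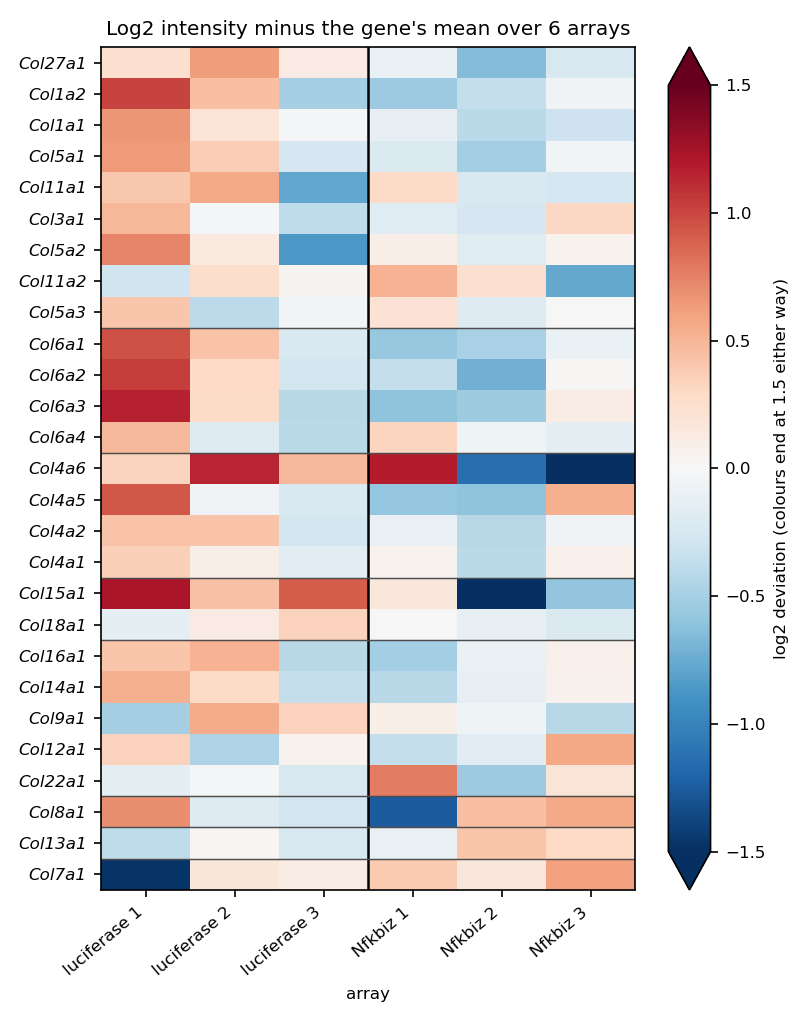
Log2 intensity of the 27 tested collagen chain genes (rows, grouped by class) on each of the 6 arrays (columns) minus the gene's mean over the arrays; red is above and blue below the mean, and colours end at a deviation of 1.5. Many fibrillar and type VI chains are red on the first and blue on the third luciferase array, and of the Nfkbiz arrays the second is mostly blue, with 4 of 27 chains above their mean, against 12 on the first and 13 on the third.

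Hepatic stellate cell markers followed a similar course over the arrays. Of 15 markers 14 were tested, Hhip being below the limit. Of these 9 were lower and 5 higher, where 52.2% of all genes were lower, and the median was -0.35. None passed over all genes, and 3 were lower at an unadjusted p below 0.05, where 7.00% of all genes were. Their summed intensity ran from 17652 to 24518 in the luciferase and from 15806 to 21206 in the Nfkbiz livers. Among the lower ones were Lrat, which makes stored retinyl esters (-0.54 ± 0.26), and Pdgfrb, the receptor that drives stellate cell growth (-0.60 ± 0.27). The 5 higher ones were Gfap (0.58 ± 0.39), Des (0.39 ± 0.35), Hgf (0.32 ± 0.27), Rgs5 (0.15 ± 0.26) and Colec11 (0.08 ± 0.12). Hand2, a stellate cell transcription factor, had the smallest p (-0.68 ± 0.19 SE, limma adjusted p = 0.209), before Reln (-0.53 ± 0.22). The part of stellate cell content in the collagen values was not tested.

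Markers of other liver cell types were mixed. Of 7 myofibroblast and smooth muscle markers 5 were tested and 4 were lower, with Mylk at -0.51 ± 0.13 and the myofibroblast actin Acta2 at -0.15 ± 0.21, and their sums ran from 3852 to 4690.5 against 2838 to 3708. Of 9 portal fibroblast and mesothelial markers 7 were tested and 5 were lower, led by Fbln2 (-0.92 ± 0.46), with sums of 1160.2 to 1655 against 928 to 1632, and Msln and Upk3b were below the limit. Of 12 endothelial markers 9 were higher and 3 lower, with a median of 0.20 and sums of 5024 to 10449 against 8747 to 10791. The third luciferase array held the lowest of these sums. Of 8 cholangiocyte markers 3 were tested, with Epcam at -0.64 ± 0.25, Krt19 at -0.92 ± 0.50 and Sox9 at 0.05 ± 0.25, and Krt7 and Cftr were below the limit. Their sums ran from 391 to 600.5 against 307 to 422. Kupffer cell markers went the other way, with 8 of 9 higher, a median of 0.83 and sums of 26367 to 34019 against 36035 to 48255. Of the 9, 7 were higher at an unadjusted p below 0.05, where 5.03% of all genes were. Of 9 hepatocyte markers 8 were tested, 4 higher and 4 lower (median -0.03), with sums of 244707 to 281401 against 242802 to 283394. None of these lists had a member that passed over all genes, and their part in the collagen values was not tested.

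**Figure D4:**
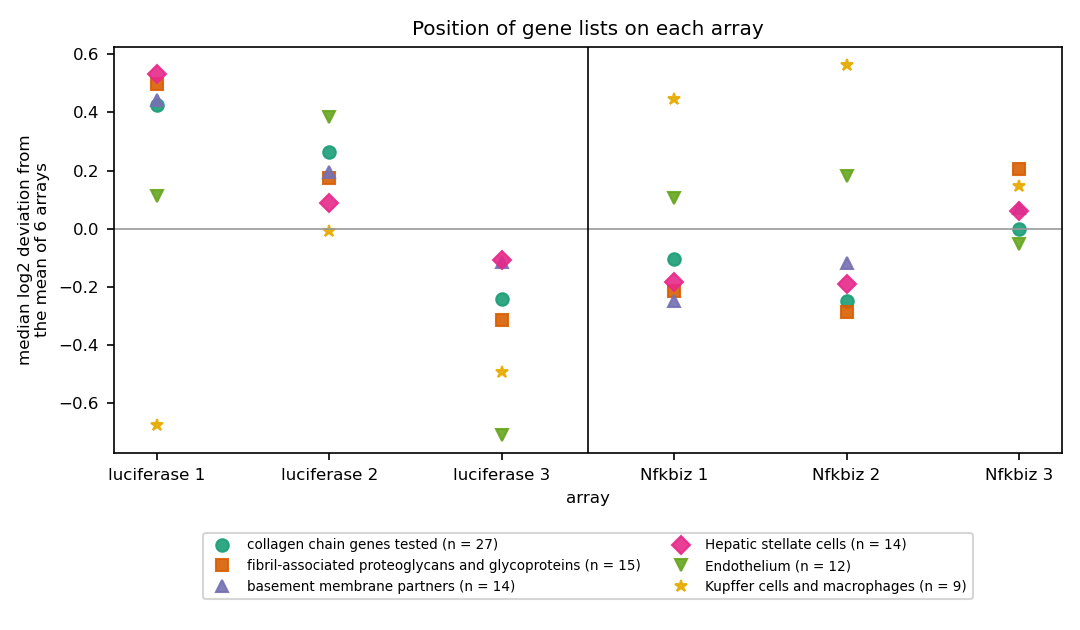
Median log2 deviation of each gene list from the genes' means over the 6 arrays (y axis), on each array (x axis); each symbol is a list and n its tested genes. Collagen chains, fibril-associated glycoproteins, basement membrane partners and stellate cell markers lie together, highest on the first luciferase array, while Kupffer cell markers lie lower on all luciferase than on all Nfkbiz arrays.

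Genes that make collagen molecules ready were lower on average too. Of 22 measured genes for the modification and export of collagen 20 were tested, and 16 were lower and 4 higher, with a median of -0.20. None passed, while 4 were at an unadjusted p below 0.05, where 12.0% of all genes were in either direction. P3h1, a prolyl 3-hydroxylase that works on the nascent chain, read 334, 318 and 316 against 218, 234 and 226 with no overlap (-0.51 ± 0.17 SE, limma adjusted p = 0.284). Its relative P3h2 differed by -1.34 ± 0.45, and Mia3 (TANGO1), which loads procollagen into export carriers, by -0.43 ± 0.13. Mia2, a relative of Mia3, was the only one of the 4 in the higher direction and read 210, 344 and 239 against 404, 367 and 399, with no overlap (0.59 ± 0.21 SE, limma adjusted p = 0.312). Ctage5, which the platform annotation lists under its own symbol, was brighter and had the opposite sign. Whether Mia2 and Ctage5 are symbols of 1 gene was not checked, and each is counted among the 20. The Ctage5 probe set read 3682, 4120 and 4397 against 3377, 3513 and 3847, with overlap (-0.18 ± 0.12 SE, limma adjusted p = 0.588). The collagen chaperone gene Serpinh1 (HSP47), chosen for its role after its values were seen, differed by -0.40 ± 0.19 (limma adjusted p = 0.432).

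For the trimming and crosslinking of procollagen, 9 genes were tested, 7 lower and 2 higher. Pcolce2, an enhancer of the proteinase that trims procollagen ends, read 86, 132 and 90.4 against 211, 264 and 176, with no overlap, and differed by 1.09 ± 0.28 SE (limma adjusted p = 0.185). The lysyl oxidase-like crosslinking genes Loxl4 and Loxl1 differed by -0.88 ± 0.35 and -0.44 ± 0.31. None passed.

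Partners of the fibrils and of the basement membrane mostly had the same sign as the chains. Of 15 fibril-associated proteoglycans and glycoproteins 13 were lower (median -0.29) and 0 passed. The smallest p-values were for the matrix glycoprotein gene Tnc (-0.82 ± 0.25 SE, limma adjusted p = 0.234), for fibronectin, Fn1 (-0.31 ± 0.13), and for Prelp (-0.43 ± 0.18). Of 14 basement membrane partners 12 were lower (median -0.18) and 0 passed. Pxdn, the peroxidase that crosslinks type IV collagen, read 617, 514 and 437 against 346, 363 and 410.2 with no overlap (-0.48 ± 0.18 SE, limma adjusted p = 0.332), and the laminin chain gene Lama5 differed by -0.60 ± 0.32.

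The list of collagen receptors, and the list that joins collagen-cutting enzymes with their inhibitors, had medians near 0. Of 11 tested receptors 6 were higher and 5 lower (median 0.02), and 0 passed. Mrc2, the endocytic collagen receptor of mesenchymal cells, differed by -2.01 ± 0.70 with Nfkbiz arrays at 22.7, 18.4 and 136, so that the third overlapped the luciferase arrays at 251, 131 and 114 while the others lay under the intensity limit. Lair1, an inhibitory collagen receptor of leukocytes, and Mrc1, the mannose receptor of macrophages and sinusoidal endothelium, differed by 0.76 ± 0.30 and 0.49 ± 0.20. Of 11 tested collagenases, gelatinases and inhibitors 7 were higher and 4 lower (median 0.05), and 0 passed. The collagenase gene Mmp13 read 225, 199.96 and 234 against 622, 289 and 484 with no overlap (1.02 ± 0.26 SE, limma adjusted p = 0.187). The other tested enzymes were Mmp9 (0.25 ± 0.37), Mmp8 (0.25 ± 0.40), Ctsk (0.11 ± 0.31), Mmp14 (0.001 ± 0.20) and Mmp2 (-0.32 ± 0.28), so most enzymes were higher. Of the inhibitors, Timp4 and Reck differed by -0.50 ± 0.32 and -0.60 ± 0.40, and Timp3, Timp1 and Timp2 by -0.39 ± 0.38, 0.05 ± 0.40 and 0.10 ± 0.27.

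TGF-β signalling, the main inducer of collagen genes in stellate cells, was covered by 15 tested genes, 10 lower and 5 higher (median -0.11), and 0 passed. Ccn2, a target of the pathway, read 1826, 1293 and 773 against 460.5, 575 and 799 (-1.04 ± 0.30 SE, limma adjusted p = 0.218). The third luciferase array overlapped the Nfkbiz group there, as in Col1a2 and the type VI chains. Ltbp1, which holds latent TGF-β in the matrix, differed by -0.90 ± 0.31, and the inhibitory Smad7 by -0.57 ± 0.26. Across the 7 lists of genes around collagen, 0 of 95 tested genes passed.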

How the data were processed

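Total RNA (100 ng) of 6 liver samples was labelled and hybridised to Affymetrix 3' expression arrays, 3 per vector. The deposited table holds linear intensities that the authors made with MAS5 and scaled to a common target, per the submitters' processing notes and the values. The MAS5 version is not given in the sources used. The mean of the middle 96% of values was 495.4 to 496.5 on all arrays. Precision is limited by the number of arrays.

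Intensities of 45037 probe sets were log2-transformed without further normalization. Of these probe sets 34945 had 1 gene symbol, 932 several and 9160 were not listed in the platform annotation. Each gene was represented by its brightest probe set (highest mean log2 intensity), and genes among the lowest 40% of probe sets were left out, which left 13312. Differences were fitted with limma 3.58.1 (lmFit, eBayes with intensity trend) in R 4.3.3, two-sided, with Benjamini-Hochberg adjustment over all genes and a threshold of 0.05, and over 27022 probe sets for values of single probe sets. The labels do not say that samples of a group came from separate mice, so p-values reflect only the scatter among these samples, which may be technical. The procedure was tested on simulated data. Figures were drawn with matplotlib 3.10.9.

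The members and gene lists were chosen with earlier results of these data known. The genes given in full were 13 chains of liver matrix, any called chain, the 8 with the smallest p, and any whose tested probe sets differed in sign. From each list up to 3 genes with the smallest p were named, and any other named gene was picked with its values known. The closing section gives the alternatives.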

Additional observations from a re-analysis of the deposited data

How the results depend on the processing

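No collagen chain gene, collagen chain probe set or gene of the 7 pathway lists was called by limma under any of the alternatives run: 17 for the genes and lists and 15 for the probe sets. They were quantile normalization, median centring, loess, a pseudocount of 16, no filter, leaving out the lowest 60%, no variance trend, array weights, the replicate block, the mean of probe sets or the most variable one (genes only), and leaving out each array. At an unadjusted p below 0.05 the chain genes numbered 2 to 11, the larger number with array weights or without the third luciferase array. The family's median stayed negative, from -0.50 to -0.15, both ends from leaving out 1 array. The alternatives turned the sign of 9 of the 27 tested chains: 6 with brief values in the text (Col5a3, Col6a4, Col8a1, Col11a1, Col11a2 and Col22a1) and 3 of the 15 given in full. Col5a2 was positive after quantile normalization (0.0189), median centring (0.0182) and loess (0.0385) and ran from -0.45 to 0.35 with 1 array left out. In the same way Col3a1 ran from -0.28 to 0.16 and Col12a1 from -0.25 to 0.22. With the mean of probe sets the difference of Col1a2 was -1.07, and with the most variable probe set that of Col14a1 was -0.61 and that of Col27a1 -0.20.

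Over all genes 30 were called. The number was 0 without the variance trend (1350 at an unadjusted p below 0.05), 62 with array weights, 13 with the mean of probe sets, 10 with the most variable probe set and 9 to 16 with 1 array left out, or 21 without the third luciferase array. The cause was not tested, other than that fewer genes or arrays entered the latter 3. Across the groups, deviations of same-numbered arrays correlated at -0.06, 0.07 and -0.03, and those of arrays with different numbers at -0.12 to 0.15. Such small values cannot decide whether the shared replicate numbers pair the arrays. With the replicate block 27 genes and 0 chains were called, and the family's median was -0.27.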
